A study of Drosophila melanogaster with 12 samples.

Results

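Metallothioneins are small cysteine-rich proteins that bind copper, zinc and cadmium. The fruit fly genes MtnA, MtnB, MtnC, MtnD, MtnE and MtnF were taken by name, and all 6 were found among the 17139 genes measured by RNA sequencing of the larval fat body. MtnF appeared in the authors' table under its older symbol, CG43222, and was recognised by its RefSeq accessions. All 6 had a mean of at least 1 TPM (a length-corrected abundance relative to all transcripts of a library) and entered the test.

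The 12 libraries came from fat bodies of Drosophila melanogaster larvae 96 hours after egg laying. The 6 control libraries were of genotype r4-Gal4>WT and were numbered 2, 3, 5, 6, 7 and 8. The 6 knockdown libraries were of genotype r4-Gal4>TFAM RNAi and were numbered 3 to 8. Both groups carried r4-Gal4, a fat body driver of the yeast transcription factor Gal4, and only the knockdown label names an RNAi transgene. TFAM coats the mitochondrial genome. The question here is how metallothionein transcripts stood in fat body with and without the TFAM knockdown. The labels name neither the RNAi line nor the sex of the larvae, and do not say whether libraries came from separate cultures. The p-values therefore reflect only how far these libraries spread, which may be technical. TFAM itself lay between 78.5 and 101.1 TPM in the controls and between 22.1 and 26.9 TPM in the knockdown (log2 fold change −1.88, SE 0.077, limma adjusted p = 5.2e-09).

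Metallothionein genes are induced by metal load. The transcription factor MTF-1 binds metal response elements in their promoters when zinc, copper or cadmium rises, and their products hold the metal. In flies MTF-1 also switches on the copper importer gene Ctr1B when copper is scarce. MtnA has been tied in flies mainly to copper and MtnB mainly to cadmium. Strong expression of the family is known from the midgut, where copper-accumulating cells lie, and from the Malpighian tubules.

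In the Ensembl annotation of assembly BDGP6.54, all 6 genes lie on chromosome arm 3R and every annotated transcript has 2 exons. The coding sequence without its stop codon is 120 bases in MtnA, 129 in MtnB and in MtnC, 132 in MtnD, 123 in MtnE and 192 in MtnF. These lengths correspond to 40, 43, 43, 44, 41 and 64 residues, so that MtnF encodes the longest product of the family. MtnC, MtnB, MtnE and MtnD lie in this order within 175 kb that hold 11 protein-coding genes in all. MtnE and MtnD are next to each other and point away from each other. MtnF overlaps the end of atl by 90 bases on the other strand, and since strand-specific counting was not stated, part of its signal could belong to atl.

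MtnB and MtnC rose in TFAM RNAi fat bodies, whereas MtnA, the member with by far the highest level, did not change detectably. MtnC went from 10.8 ± 6.67 to 96.8 ± 84.5 TPM (mean ± SD, n = 6 each), a ratio of means of 8.96. MtnB went from 3.74 ± 3.86 to 35.3 ± 35.9 TPM, a ratio of 9.43. The mean of MtnD was 2.97 times and that of MtnE 1.67 times the control mean, and neither passed the test. Of the 6 members 2 were called higher and 0 lower, where 5.75% of the 9951 tested genes were called higher and 13.8% lower, 19.6% in all. The median log2 fold change was 1.05 over the 6 members and 0.012 over all tested genes. Groups overlapped for every member, while they did not overlap for 13.3% of tested genes. With whole tissue, more RNA per cell and more cells of a type that carries the RNA cannot be told apart.

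**Figure D1:**
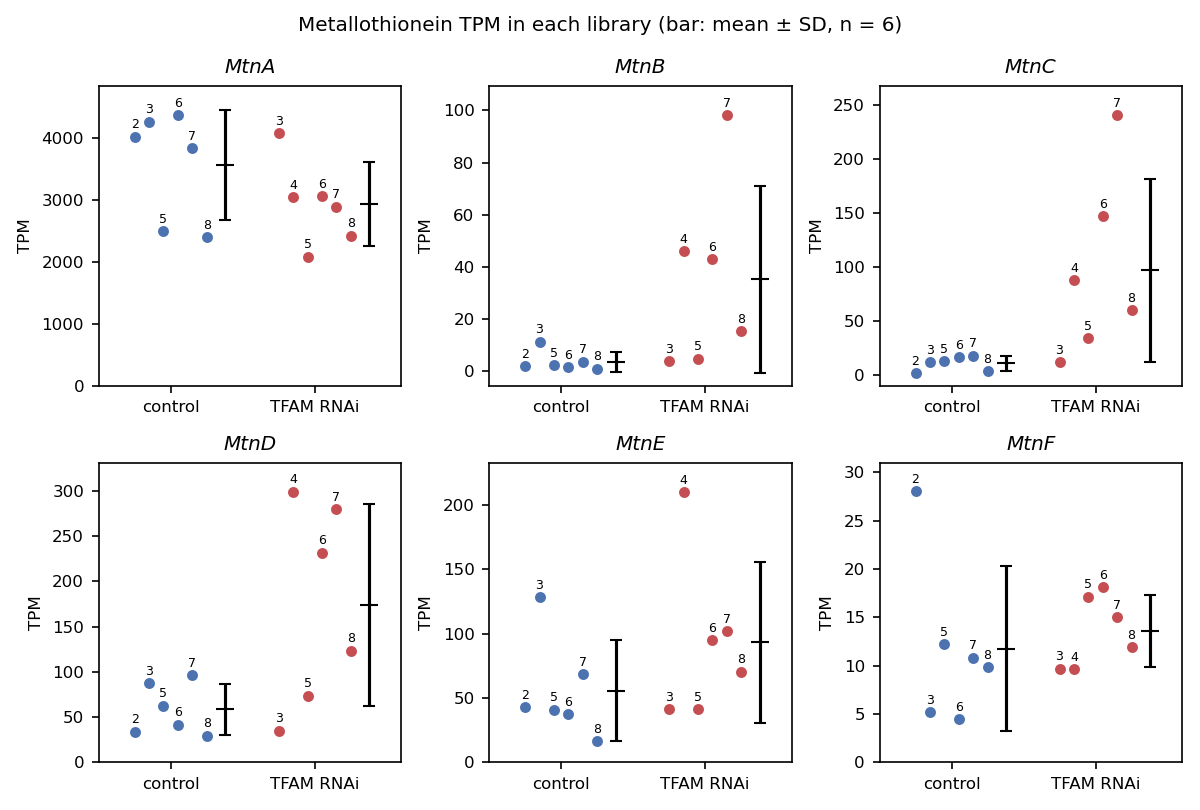
TPM of each metallothionein (vertical axes, linear) in the 6 control libraries (blue) and the 6 TFAM RNAi libraries (red), with the replicate number above each point and a bar for the mean ± SD. MtnB, MtnC and MtnD spread upward in TFAM RNAi, where replicate 3 stays at 3.98, 11.6 and 35.1 TPM, while MtnA lies between 2086 and 4369 TPM in all libraries.

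MtnC, the member with the largest log2 fold change, had 1.87, 12.1, 12.7, 16.7, 17.8 and 3.54 TPM in control replicates 2, 3, 5, 6, 7 and 8. It had 11.6, 87.7, 34.3, 147, 240.3 and 60.2 TPM in TFAM RNAi replicates 3 to 8. In 5 of 6 TFAM RNAi libraries MtnC was above the highest control, and replicate 3 lay inside the control range. MtnC rose by 2.79 on the log2 scale (SE 0.70, limma adjusted p = 0.013). Leaving out any 1 library kept the call, but the exact rank-sum test did not call it (adjusted p = 0.11).

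MtnB, the cadmium-linked member, had 1.96, 11.4, 2.54, 1.72, 3.81 and 1.03 TPM in the 6 controls in the same order. In TFAM RNAi replicates 3 to 8 it had 3.98, 46.1, 4.94, 43.0, 98.2 and 15.4 TPM. Replicates 4, 6, 7 and 8 exceeded every control, and replicates 3 and 5 lay below control replicate 3, the highest control. MtnB rose by 2.47 on the log2 scale (SE 0.73, limma adjusted p = 0.031). Leaving out control replicate 2, 5, 6, 7 or 8, or TFAM RNAi replicate 4, 6 or 7, ended the call of MtnB, with adjusted p between 0.052 and 0.072. The control mean was 2.21 TPM without control replicate 3 and the TFAM RNAi mean 22.7 TPM without replicate 7.

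MtnD had 34.1, 87.2, 62.5, 41.8, 96.4 and 29.5 TPM in the controls and 35.1, 299, 73.9, 232, 279 and 123 TPM in TFAM RNAi replicates 3 to 8. Replicates 4, 6, 7 and 8 exceeded every control, while replicates 3 and 5 fell within the control range. At a log2 fold change of 1.34 (SE 0.52), MtnD was not called (limma adjusted p = 0.1). It passed without TFAM RNAi replicate 3 (limma adjusted p = 0.012), after quantile normalization (0.046) and when array weights were used (0.0093), which called 4648 genes in all.

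MtnE, the neighbour of MtnD, had 42.6, 128, 40.9, 37.5, 68.3 and 16.5 TPM in the controls and 41.0, 209.8, 41.2, 95.1, 101.6 and 70.3 TPM in TFAM RNAi. The highest value of each group, in control replicate 3 and TFAM RNAi replicate 4, stood well above the rest of that group. Only TFAM RNAi replicate 4 exceeded all controls. The log2 fold change of MtnE was 0.76 (SE 0.48, limma adjusted p = 0.35).

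MtnA, the copper-linked member, had 4025, 4267, 2501, 4369, 3837 and 2402 TPM in the controls and 4081, 3051, 2086, 3067, 2894 and 2427 TPM in TFAM RNAi. Control replicates 5 and 8 were low and TFAM RNAi replicate 3 high, so that the groups overlapped widely. Its log2 fold change was −0.27 (SE 0.19, limma adjusted p = 0.41). It ranged from −0.44 to −0.18 over the 24 alternative fits, and none called it.

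MtnF, the longest member, had 28.0, 5.22, 12.2, 4.48, 10.8 and 9.82 TPM in the controls and 9.70, 9.67, 17.1, 18.1, 15.0 and 11.9 TPM in TFAM RNAi. Control replicate 2 held the highest and control replicates 6 and 3 the lowest values, so that the TFAM RNAi range lay inside the control range. The log2 fold change was 0.38 (SE 0.35, limma adjusted p = 0.54). Array weights, which called 4648 genes in all, gave 0.69 and a call (adjusted p = 0.041). No other alternative called MtnF.

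The members differed by orders of magnitude in level. By median TPM in the controls the order was MtnA (3931), MtnD (52.2), MtnE (41.7), MtnC (12.4), MtnF (10.3) and MtnB (2.25). MtnA stood apart from MtnD without overlap, whereas the ranges of each later pair of neighbours overlapped: MtnD exceeded MtnE in 4 of 6 control libraries and MtnC exceeded MtnF in 4 of 6. In TFAM RNAi the order of medians was MtnA (2972), MtnD (177.6), MtnE (82.7), MtnC (73.9), MtnB (29.2) and MtnF (13.5). MtnE exceeded MtnC in 4 of 6 TFAM RNAi libraries and MtnC exceeded MtnB in all 6. MtnA ranked between the 20th and the 82nd most abundant gene in the controls and between the 41st and the 104th in TFAM RNAi. The median rank of MtnC was 4536 in the controls and 1330 in TFAM RNAi.

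The summed level of the 6 genes, carried mostly by MtnA, was 3707 ± 919 TPM in the controls and 3347 ± 716 TPM in TFAM RNAi (SD, n = 6 each). MtnA made up 94.6 to 97.7% of this sum in the controls and 79.8 to 97.6% in TFAM RNAi, lowest in replicate 7. Without MtnA the other members summed to 60.3 to 244 TPM in the controls and to 101 to 735 TPM in TFAM RNAi.

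Members changed unequally. The difference of log2(TPM + 1) between 2 members of the same library was compared between the groups for all 15 pairs by a two-sided exact permutation test, with p-values adjusted over the pairs. The test called 6 pairs, each of them MtnB or MtnC against MtnA, MtnD or MtnE. The log2 difference MtnA minus MtnC changed by −3.06 (exact p = 0.00866, adjusted p = 0.038) and MtnC gained 1.45 over MtnD (exact p = 0.00649, adjusted p = 0.038). MtnB gained 1.71 over MtnE (exact p = 0.00216, the smallest that 6 against 6 can give, adjusted p = 0.0325), and for this pair the groups did not overlap. The difference MtnB minus MtnC changed by −0.32 (exact p = 0.54), which does not show that they changed alike. The number of called pairs ranged from 0 to 10 when 1 library was left out. Leaving out control replicate 2, 7 or 8, or TFAM RNAi replicate 4, 6, 7 or 8, left 0 called pairs, where 7 or 8 pairs kept an unadjusted p under 0.05. Leaving out TFAM RNAi replicate 3 left 10. With 1 library left out no exact p can fall below 0.00433, so a single pair at this floor could not pass the adjustment by itself.

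Among the 6 TFAM RNAi libraries, MtnD and MtnE had a Pearson r of 0.89 (exact permutation p = 0.00278) and a Spearman rho of 1.0 (exact permutation p = 0.00278), with r = 0.77 after leaving out the 2 libraries farthest from the median of MtnD. MtnB and MtnC had r = 0.95 (exact permutation p = 0.00556) and rho = 0.94 (exact permutation p = 0.0167), with r = 0.91 after the same omission. Among the 6 controls MtnB and MtnE had r = 0.95 (exact permutation p = 0.00833) and rho = 0.94 (exact permutation p = 0.0167), with r = 0.92 after it. MtnB and MtnC in the controls had r = 0.43 (exact permutation p = 0.39) and rho = 0.31 (exact permutation p = 0.56), with r = 0.41 after it. MtnC and MtnE in the controls had r = 0.48 (exact permutation p = 0.41) and rho = 0.14 (exact permutation p = 0.80), with r = −0.39 after it. MtnA with MtnD gave r = 0.30 in control and −0.18 in TFAM RNAi (exact permutation p = 0.51 and 0.71), with rho = 0.26 and −0.03 (exact permutation p = 0.66 and 1.0) and r = −0.31 and 0.91 after leaving out 2 libraries. Of 30 relations computed, 15 pairs in each group, 0 passed the adjustment. The lowest adjusted exact p was 0.0625 for r and 0.0833 for rho, and 8 values of r and 6 of rho had an unadjusted exact p under 0.05.

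The authors' table held 11 transcripts of the 6 genes. A single transcript carried 97.6 to 98.3% of MtnA and another 96.8 to 99.2% of MtnE in every library. MtnC and MtnD had 1 transcript each. MtnB was split over 3 transcripts. One of them went from 1.67 ± 1.72 to 20.1 ± 19.8 TPM and another from 2.07 ± 2.35 to 13.9 ± 15.4 TPM, while the third was listed at 0 in all 6 controls and lay between 0.296 and 2.74 TPM in TFAM RNAi. The shares of the MtnB transcripts varied widely in the controls, where the first made up 17.5 to 100% of a low total. The quantifier could also have moved reads between these overlapping transcripts.

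In the authors' deposited table of Wald tests per transcript, where 9.22% of 21722 transcripts had a q under 0.05, 2 of the 10 metallothionein transcripts with a q passed. They were the first MtnB transcript (coefficient 2.32 on the natural log scale, SE 0.559, q = 0.000688) and MtnC (coefficient 2.03, SE 0.562, q = 0.00484). The authors' deposited table gave q = 0.439 for the other quantified MtnB transcript, 0.132 for MtnD, 0.549 and 0.59 for the MtnE transcripts and 0.546 and 0.731 for those of MtnA. In the authors' deposited table of gene-level likelihood ratio tests, which lists significant genes only, MtnC had q = 0.0168 and MtnB q = 0.0324, and the other members were not in the list.

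The identity of the tissue and RNA from other organs bear on these values. Of 10 fat body markers fixed for the check, the larval serum protein genes Lsp1beta and Lsp1gamma had at least 19111 and 14314 TPM in every library, so the libraries were rich in fat body RNA. Fbp1 was at or below 1.49 TPM in all of them. The fat body markers had a median sum of 55129 TPM in the controls and 100460 TPM in TFAM RNAi, with overlap. Lsp1beta and Lsp1gamma made up most of this sum in every library. Of the single markers Fbp2 (27.5 to 319 and 722 to 3829 TPM) and fon (1498 to 2134 and 3253 to 4650 TPM) were higher and Lsd-1 (992 to 1936 and 771 to 833 TPM) lower in TFAM RNAi without overlap. The 14 midgut markers, mostly trypsin-like and Jonah digestive proteases, summed to between 874 and 8786 TPM in the controls and between 436 and 6204 TPM in TFAM RNAi. Midgut RNA was therefore present in every library, and 3 of its markers were below 1 TPM throughout, among them lab, a homeobox gene that defines copper cells (at most 0.56 TPM). Vha100-4, another midgut marker, was highest in control replicate 3 at 12.3 TPM and was at most 1.81 TPM in TFAM RNAi. The trypsin gene epsilonTry, in contrast, was higher in TFAM RNAi without overlap (0.153 to 0.871 and 1.91 to 278 TPM), and betaTry had 1.73 to 18.6 and 14.3 to 280.3 TPM. Of the other tissue lists, hemocyte markers summed to 106 to 287 TPM in control and 53.0 to 103.7 TPM in TFAM RNAi, and Malpighian tubule markers to 739 to 1123 and 374 to 677 TPM. The difference between the groups in each sum rested mainly on a single gene. It was Pxn of the hemocyte list (72.7 to 247 and 3.2 to 6.72 TPM) and Uro of the Malpighian list (600.4 to 972 and 273.5 to 545 TPM). Every other marker of both lists overlapped between the groups. In TFAM RNAi Pxn was a small part of the hemocyte sum, where PPO1 had 10.6 to 34.2 TPM and PPO2 12.1 to 36.7 TPM. Of these lists, 1 of 6 Malpighian, 1 of 9 hemocyte and 2 of 5 ring gland markers were below 1 TPM throughout. The ring gland list summed to 45.5 to 75.6 and 3.2 to 16.7 TPM. Its fall rested on sad (37.7 to 73.6 and 0 to 1.74 TPM). In the same list sro was higher in TFAM RNAi without overlap (0.366 to 1.85 and 2.52 to 11.0 TPM). The summed markers of salivary gland, muscle, nervous system and cuticle overlapped between the groups, although cpx of the nervous list (30.7 to 90.1 and 8.21 to 30.1 TPM) and Cpr49Ac of the cuticle list (266 to 1073 and 47.0 to 106.1 TPM) did not. In the salivary gland list TFAM RNAi replicate 3 stood apart, with Sgs7 at 767 TPM and Sgs8 at 193 TPM. The controls had at most 2.38 and 0.993 TPM, and TFAM RNAi replicate 4, the next highest, 15.8 and 3.97 TPM. Replicate 3 was also the TFAM RNAi library with the lowest MtnB, MtnC and MtnD. The part of these tissues in the metallothionein values was not tested.

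High MtnB, MtnC and MtnD stood beside both low and high midgut sums in the knockdown. TFAM RNAi replicate 7, with the highest MtnB and MtnC of all 12 libraries, had the lowest midgut sum of all (436 TPM). TFAM RNAi replicates 4 and 6 combined high values of MtnB, MtnC and MtnD with midgut sums of 6204 and 3461 TPM. TFAM RNAi replicate 3, at 2523 TPM of midgut markers, had the lowest MtnB, MtnC and MtnD of its group. Control replicate 3, with the highest midgut sum (8786 TPM), also had the highest MtnB and MtnE of the controls. Without the 4 libraries richest in midgut markers (control replicate 3 and TFAM RNAi replicates 4, 6 and 3), an alternative chosen after seeing the values, the means were 2.21 and 39.5 TPM for MtnB and 10.5 and 112 TPM for MtnC. The log2 fold change was then 2.79 for MtnB (limma adjusted p = 0.055) and 3.16 for MtnC (limma adjusted p = 0.039), over 5 controls and 3 TFAM RNAi libraries. For MtnE it was 0.81 (limma adjusted p = 0.31).

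**Figure D2:**
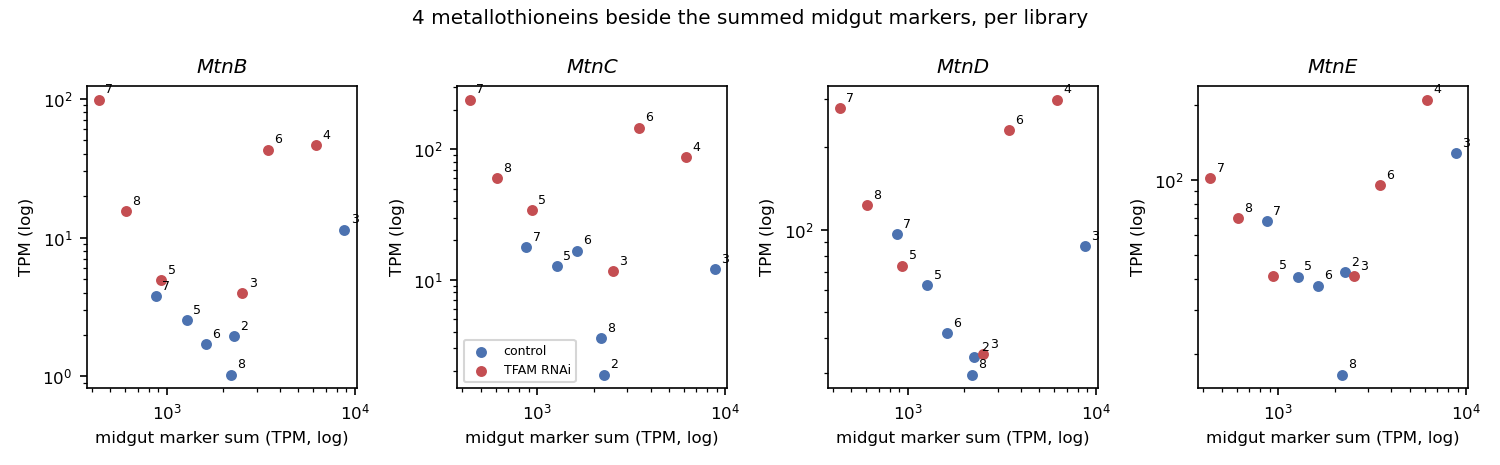
TPM of MtnB, MtnC, MtnD and MtnE (vertical axes, log) against the summed TPM of 14 midgut markers (horizontal axes, log) in control (blue) and TFAM RNAi (red) libraries, with replicate numbers. TFAM RNAi replicate 7 lies at the lowest midgut sum, 436 TPM, with the highest MtnB and MtnC.

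MtnF was high in the libraries high in gonad markers. The 6 matched markers of gonad, which include the germline gene vas and the testis genes Mst84Da and betaTub85D, summed to 147.5 TPM in control replicate 2, the library with the highest MtnF. They summed to 26.7 and 26.3 TPM in control replicates 3 and 6, which had the lowest MtnF. In TFAM RNAi the sums of 113.7, 101.3 and 101.2 TPM in replicates 5, 6 and 7 stood beside MtnF levels of 17.1, 18.1 and 15.0 TPM, and those of 49.7 and 53.2 TPM in replicates 4 and 3 beside 9.67 and 9.70 TPM. Control replicate 2 was also the highest library in muscle markers (2764 TPM, next 897 TPM) and cuticle markers (7363 TPM, next 3232 TPM). The part of gonad RNA in the level of MtnF was not tested.

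The 5 libraries with the highest MtnA, control replicates 2, 3, 6 and 7 and TFAM RNAi replicate 3, were also the 5 with the lowest sum of fat body markers. Lsp1beta and Lsp1gamma made up most of that sum, and both were lower in these 5 libraries than in any other. Lsd-1 of the same list did not follow. It had 1289 to 1936 TPM in control replicates 2, 3, 6 and 7, and 1514 and 992 TPM in control replicates 5 and 8. In these 5 MtnA was at least 3837 TPM beside sums of at most 67805 TPM, and in the other 7 MtnA was at most 3067 TPM beside sums of at least 93001 TPM. The same 5 libraries were also the lowest in apolpp, another fat body marker (150.4 to 328 TPM, against 1086 to 4703 TPM in the other 7). The 5 libraries are mostly controls, so this split is not independent of the group comparison. What these relations contribute to the level of MtnA or to its comparison between the groups was not tested.

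**Figure D3:**
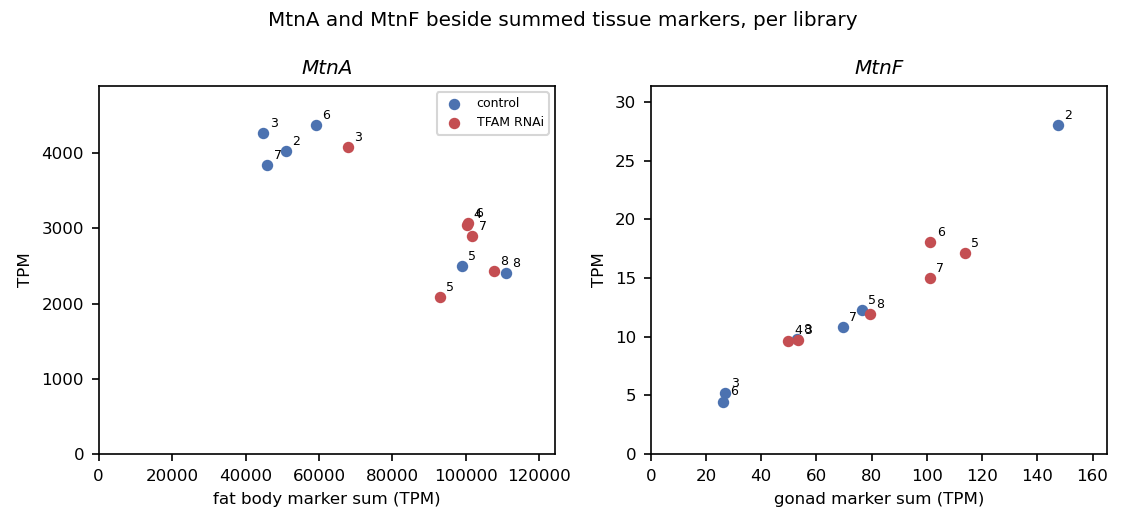
MtnA against the summed TPM of 10 fat body markers (left) and MtnF against the summed TPM of 6 gonad markers (right) in control (blue) and TFAM RNAi (red) libraries, all axes linear and in TPM, with replicate numbers. MtnF is lowest (4.48 TPM) and highest (28.0 TPM) at the lowest and highest gonad sums, and MtnA is at least 3837 TPM in the 5 libraries lowest in fat body markers.

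The genes whose levels were most like each member within the groups were found by Pearson r over the 12 libraries after removing the group means, among 6946 other genes averaging 5 TPM or more. All 12 libraries share the same scaling, and these values are descriptions. The highest r among so many genes is large by selection, and no chance level was computed. For MtnC the nearest gene was ZnT35C, a vesicular zinc transporter (r = 0.90, and 0.344 with the group means kept), and ZnT35C was also nearest to MtnD (r = 0.863). ZnT35C is one of the 6 Malpighian tubule markers. The ferritin light chain gene Fer2LCH followed for MtnD (r = 0.845), and the ferritin heavy chain gene Fer1HCH was nearest to MtnE (r = 0.934). SPH93 (r = 0.899) and Ugt36D1 (r = 0.855) completed the list for MtnE, CG2938 (r = 0.838) and the adenosine deaminase gene Adgf-A (r = 0.827) that for MtnC, and CG10353 (r = 0.834) that for MtnD. With the group means kept, r was −0.109 for Fer2LCH with MtnD and 0.362 for Fer1HCH with MtnE. It was −0.357 for CG2938 and −0.456 for Adgf-A with MtnC, and −0.324 for rho-4 with MtnB. MtnB was nearest to Chd64 (r = 0.799), rho-4 (r = 0.79) and Muc26B (r = 0.784), less near than to its own relative MtnD (r = 0.915). MtnA was nearest to PLCXD, CG4592 and CG14207 (r = 0.938, 0.937 and 0.933) and at most 0.413 with any other member. MtnF reached r = 0.991, 0.99 and 0.989 with CG18662, CG32240 and CG15198 and was at or below −0.06 with every other member.

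MTF-1, the metal-responsive factor itself, had 16.9, 19.3, 27.1, 15.1, 18.4 and 22.3 TPM in the controls and 7.40, 12.2, 14.0, 17.4, 16.6 and 10.5 TPM in TFAM RNAi. All 6 knockdown libraries lay below the control median and 4 below the lowest control. The log2 fold change was −0.60 (SE 0.20) and MTF-1 just missed the threshold (limma adjusted p = 0.051), which it passed in 7 of 24 alternatives, with log2 fold changes from −0.69 to −0.27 over all 24.

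Of 9 tested genes of copper handling, 6 fell and 0 rose (median log2 fold change −0.39), where 13.8% of all tested genes fell and 5.75% rose. Median-ratio scaling gave 4 falls and 0 rises, and quantile normalization 5 falls and 1 rise, where 1075 of all tested genes fell and 961 rose. The copper importer gene Ctr1B had 37.4, 54.5, 35.3, 54.9, 40.7 and 45.1 TPM in the controls and 23.8, 23.9, 16.8, 26.0, 21.4 and 23.3 TPM in TFAM RNAi, without overlap. It fell by 0.95 on the log2 scale (SE 0.13, limma adjusted p = 0.00019). The other falls included Ccs, the copper chaperone of superoxide dismutase (31.5 to 20.2 TPM), and the cytochrome c oxidase assembly genes Cox11 (49.4 to 27.8 TPM, log2 fold change −0.81) and Scox (79.8 to 58.5 TPM, −0.44). Ctr1A, the general copper importer, had 15.3 TPM in both groups (limma adjusted p = 0.99), and the copper-exporting ATPase gene ATP7 had 9.36 and 10.1 TPM (limma adjusted p = 0.71).

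Of 15 tested zinc transporter genes, 4 fell and 2 rose, beside the same 13.8% and 5.75% over all genes. Median-ratio scaling gave 4 and 0 and quantile normalization 2 and 0. Zip99C, a member of the ZIP family described in flies as moving iron into the secretory pathway, fell to 10.7 ± 1.30 TPM in the knockdown, against 113 ± 36.9 TPM in the controls (a log2 fold change of −3.22 with SE 0.21, limma adjusted p = 2.8e-07). The groups did not overlap, with 54.2 TPM in the lowest control and 13.0 TPM in the highest knockdown library. ZnT63C (54.4 to 35.9 TPM), ZnT86D (89.9 to 64.9 TPM) and ZnT77C (11.1 to 7.93 TPM) were the other falls, and ZnT41F (6.28 to 8.16 TPM) and Zip88E (11.9 to 15.3 TPM) rose. ZnT35C, the zinc transporter nearest to MtnC within the groups, had 54.0 ± 10.7 and 48.0 ± 11.4 TPM and was not called (limma adjusted p = 0.55). Quantile normalization ended the calls of ZnT86D (adjusted p = 0.094) and ZnT77C (0.068). Without the 4 libraries richest in midgut markers 3 zinc genes fell and 0 rose, where 812 of all tested genes fell and 360 rose. In that fit ZnT77C, ZnT41F and Zip88E were not called (adjusted p = 0.17 for ZnT77C).

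**Figure D4:**
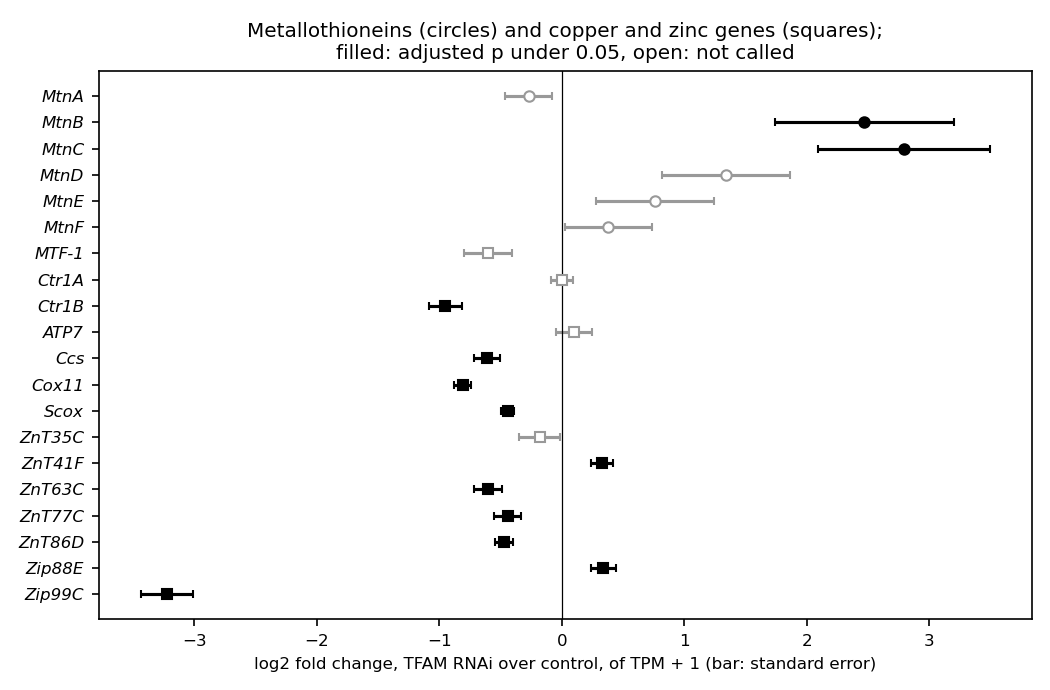
Log2 fold changes of TPM + 1, TFAM RNAi over control (horizontal axis, bars are standard errors), for the 6 metallothioneins (circles) and for MTF-1 and copper and zinc genes (squares), filled where the adjusted p was under 0.05. MtnB and MtnC lie at 2.47 and 2.79, whereas Ctr1B lies at −0.95 and Zip99C at −3.22.

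Genes of glutathione and of metal-inducible stress gave a mixed picture. Of 13 tested glutathione and antioxidant response genes 2 rose and 3 fell, beside 5.75% and 13.8% over all genes, with a median log2 fold change of −0.02. Both rises were Gss1 and Gss2, a single measurement counted under both names. Without the 4 libraries richest in midgut markers 0 rose and 2 fell (limma adjusted p = 0.059 for Gss1 and Gss2). Quantile normalization gave 4 and 2 and a median of 0.01. Gclc, the catalytic subunit of the rate-limiting enzyme of glutathione synthesis, fell from 17.3 ± 4.59 to 7.67 ± 1.54 TPM (limma adjusted p = 0.0011), and thioredoxin reductase (Trxr1) from 240 ± 31.0 to 136 ± 14.3 TPM. The glutathione synthetase genes Gss1 and Gss2 had the same values in every library, from 37.8 to 49.8 TPM, which belong to either copy. Of 15 tested genes of the heat shock list, which holds MTF-1 and the metal-inducible chaperones, 1 fell and 0 rose, beside the same shares over all genes. It was Hsp70Bbb (27.1 ± 35.2 and 0.767 ± 0.764 TPM), one of several near-identical Hsp70 copies between which reads can be split. Its call was lost in 10 of 24 alternatives (adjusted p up to 0.23). Control replicates 5 and 8 had 72.7 and 72.2 TPM of it, the other controls 1.25 to 10.3 TPM and TFAM RNAi 0 to 2.01 TPM. Control replicates 5 and 8 were also the highest of all 12 libraries in Hsp22 (78.9 and 93.0 TPM) and Hsp26 (408 and 360 TPM). Hsp22, Hsp23 and Hsp26 had 38.5 and 11.4, 51.5 and 35.5, and 232 and 133 TPM without a call (limma adjusted p from 0.25 to 0.41). The median log2 fold change of the heat shock list was −0.60. Hsp70Bb had the opposite sign (log2 fold change 1.42, limma adjusted p = 0.28), and Hsp67Bc (0.05) and Hsp83 (−0.11) changed little.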

How the data were processed

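The authors deposited TPM for 34213 RefSeq transcripts in 12 libraries, made from total RNA with a directional kit per the labels. The authors' own tests were deposited as well: Wald tests per transcript, with p-values, q-values and natural log coefficients, and gene-level likelihood ratio tests. Per the submitters' processing notes sleuth was used. Its version, the quantifier and the build were not given. Over 1498 transcripts above 50 TPM the coefficients matched natural log differences of TPM with a slope of 0.999. TPM keeps no depth, so no counting interval is given.

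Transcripts were named by accession through RefSeq (Release 6 plus ISO1 MT, 34056 matched) and summed per gene. Genes averaging 1 TPM or more (9951) were tested with limma 3.58.1 in R 4.3.3 (eBayes with trend) on log2(TPM + 1), which understates changes of low genes, without a block. Two-sided p-values were adjusted by Benjamini-Hochberg across the 9951 genes and called under 0.05. The test was checked on simulated data. Pairs and correlations used exact permutation (scipy 1.17.1). Quantile normalization moved the called genes from 572 higher and 1377 lower to 961 and 1075. Named genes were the members, TFAM, MTF-1, Ctr1A, Ctr1B, ATP7, ZnT35C, ZnT63C, up to 4 called members of each list by adjusted p, and the 3 nearest genes of each member. ZnT41F, Zip88E, Hsp22, Hsp23, Hsp26, Hsp67Bc, Hsp70Bb, Hsp83 and the marker genes were named after their values were seen. The members and lists were chosen with earlier results of these data known.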

Additional observations from a re-analysis of the deposited data

Results flagged for a closer look

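Of 48 groups of 6 libraries examined, 5 held a library far from its own group. The rule flags about 1 group in 20 by chance if values are normally distributed. It was applied to TPM without a log, which is skewed, so an excess over chance cannot be read from this count. Control replicate 3 stood apart in MtnB at 11.4 TPM, with the other controls between 1.03 and 3.81 TPM. TFAM RNAi replicate 4 stood apart in MtnE at 209.8 TPM, with the others between 41.0 and 101.6 TPM. Control replicate 2 stood apart in MtnF at 28.0 TPM, with the others between 4.48 and 12.2 TPM, and in Gss1 and Gss2, which share their values, at 46.2 TPM against 35.9 to 36.5 TPM. These are the libraries with the highest midgut sum of each group (8786 TPM in control replicate 3 and 6204 TPM in TFAM RNAi replicate 4) and with the highest gonad, muscle and cuticle sums of all libraries (147.5, 2764 and 7363 TPM in control replicate 2).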

How the results depend on the processing

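Against 2 metallothioneins called, quantile normalization called 3, array weights 4, the exact rank-sum test 1 and the fit without the 4 libraries richest in midgut markers 1. Over all 9951 tested genes these settings called 2036, 4648, 1862 and 1172, against 1949 in the main fit. Leaving out single libraries gave 1 to 3 metallothioneins, where 1641 to 2159 of all tested genes were called. The call of MtnB was lost in 10 of 24 alternatives and that of MtnC in 1, and no member changed direction in any of the 24. Against 6 called pairs, single omissions gave 0 to 10 and the test without the 4 libraries 0, where 7 pairs had an unadjusted exact p under 0.05. All 7 stood at 0.0357, the smallest exact p that the libraries left allow. Adjustment over the pairs then leaves little room for a call, so this 0 does not decide whether the pairs depended on the 4 libraries. Metal-handling genes called went from 18 to 11 without the 4 libraries, where the calls over all tested genes went from 1949 to 1172. They lay between 14 and 26 in the other alternatives, and the 26 came with array weights, which called 4648 genes in all. The 18 count Gss1 and Gss2, a single measurement, under both names. The log2 fold change of Ctr1A, near 0 and not called, turned positive under median-ratio scaling (0.01), quantile normalization (0.08), array weights (0.05) and a replicate block (0.02), and without the 4 libraries (0.08), and ranged from −0.04 to 0.05 with single omissions. That of ZnT35C turned to 0.04 under quantile normalization. Causes were not tested.

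Replicate numbers were not shown to pair the libraries: same-numbered deviations correlated at 0.313, 0.616, −0.0768, 0.0466 and 0.0348. With a replicate block 2512 genes and 1 metallothionein were called, the log2 fold change of MtnB was 2.17 without a call (adjusted p = 0.12), and that of MtnC was 2.36 (called, adjusted p = 0.031). Of pairs 0 were called, since 5 blocked pairs allow no p below 0.0625. Depth is unknown, which limits what can be said of MtnB in the controls.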
